A study of Gallus gallus with 12 samples.

Results

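The transcriptional response of chicken HD11 macrophage-like cells to lipopolysaccharide (LPS) is described here from 6 of the 12 RNA-seq libraries of the series, namely the 3 LPS libraries and the 3 Control libraries. They were chosen by the names of their columns in the raw count table, with no use of measured values. HD11 is 1 established line, made by transforming chicken bone marrow cells with the avian myelocytomatosis virus MC29, which carries the v-myc oncogene, so cells of both groups carry this oncogene and all values belong to this line. Cells of the LPS group received LPS at 100 ng/mL for 6 h, and cells of the Control group received phosphate-buffered saline. The seeding step printed for all samples mentions the selenium compound SeMC in the medium, whereas the group labels give SeMC only to the SeMC groups, whose libraries were not analysed here. No source used here says that the replicates were separate cultures, so the p-values measure the spread between these samples, which may be technical.

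LPS is a glycolipid of the outer membrane of Gram-negative bacteria. In macrophages of mammals it is bound by the receptor TLR4 with its partner LY96. There the adaptors MYD88 and TICAM1 pass the signal to NF-kB, to the MAP kinases with AP-1, and to interferon regulatory factors. Which of these arms act in chicken HD11 cells was not tested. Genes of cytokines, chemokines and enzymes that make nitric oxide and prostaglandins are switched on within hours, together with inhibitors that later damp the same pathways, and genes of the resting macrophage are commonly turned down.

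The total count per library was 13451069, 14018893 and 13744135 in LPS and 14972385, 15152648 and 17024392 in Control. Levels are given as CPM, which is the count of a gene scaled by the TMM-adjusted size of its library and not by gene length, so they compare libraries and not genes. Replicates differed by more than the sampling noise of counts, with a median chi-square of 1.2 to 1.8 per gene between pairs, where counting alone gives 0.455. Some markers of other cell types were measured too, so being measured does not by itself show the labelled cell type. All 14 macrophage markers were measured in every library. Their summed level was 4210 to 4310 CPM in LPS and 5720 to 6120 CPM in Control, and 8 of the 14 fell while 2 rose. The marker lists of other cell types were only partly in the table, so their sums do not show that a cell type was absent. The table held 3 of 6 B cell, 1 of 5 erythroid, 2 of 6 fibroblast and 4 of 7 T cell markers. It held 3 of 4 thrombocyte, 1 of 4 epithelial and 1 of 3 endothelial markers. Those of B cells and erythroid cells stayed under 1 CPM in sum in every library. The summed level was 12.9 to 15.3 CPM in LPS and 16.8 to 21.4 CPM in Control for fibroblast markers, 1.1 to 4.46 CPM and 1.99 to 3.07 CPM for epithelial markers, and 1.9 to 2.16 CPM and 1.11 to 3.46 CPM for endothelial markers. It was 50.5 to 55.9 CPM in LPS and 53.6 to 59.6 CPM in Control for T cell markers, nearly all of it CD28, and 348 to 381 CPM and 437 to 464 CPM for thrombocyte markers, nearly all of it F13A1, which macrophages also express. Single markers that fell in these lists were PDGFRB (-2.10) of fibroblasts and TUBB1 (-1.10) of thrombocytes. In RNA of a whole well, a smaller share of cells expressing a gene and less RNA of it per cell cannot be told apart.

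LPS replicate 1 stood apart from the other LPS libraries in a set of genes. Among 10002 well-counted genes, those averaging 100 counts or more per library, 28 were more than 2-fold above both other LPS libraries in it, against 0 to 2 genes in each other library. Among them, named after their values were seen, were AKAP9, PCNT, CENPF, GOLGA4, BPTF and FAT1. With all libraries 14 of the 28 were called lower in LPS, and without LPS replicate 1 the number was 26, the exceptions being DST and TCF4. Results that rest on these genes are given with and without this library.

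The first question was how many genes differed between the groups. Of 16161 genes in the table, 13008 had enough counts to be tested and 3153 did not. The quasi-likelihood test of edgeR, with p-values adjusted by the method of Benjamini and Hochberg, called 1567 genes at a false discovery rate (FDR) below 0.05 and more than a 1.5-fold difference, which is 12.0% of the genes tested. Of these, 797 (6.13%) were higher in LPS and 770 (5.92%) were lower in LPS. The numbers were near each other at this threshold, but the large changes were mostly increases. More than 8-fold differences were called in 59 genes higher and 15 genes lower in LPS, and more than 16-fold differences in 31 and 4 genes. The median log2 fold change over all genes tested was -0.0015 and the median of its absolute value was 0.204. The LPS and Control libraries did not overlap in 1540 of the 1567 genes called, and in 5985 (46.0%) of all genes tested. The counting strand is not given in the sources used here, so genes that share their span with another annotated gene are uncertain. This was the case for 47.1% of the genes called and 46.3% of those tested. A span runs from the start to the end of a gene, introns included, so overlapping spans need not share exons.

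**Figure D1:**
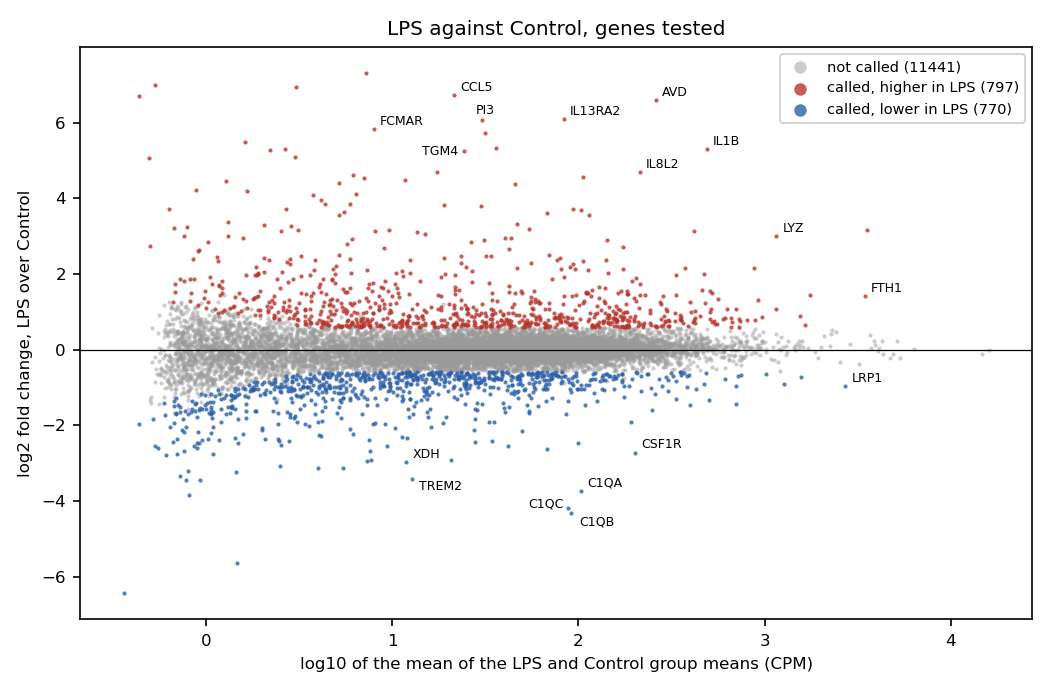
Each point is a gene tested. The x axis is the log10 of its mean level in CPM over both groups and the y axis its log2 fold change of LPS over Control. Red points were called higher in LPS (797), blue points lower in LPS (770) and grey points were not called. The largest increases reached further from 0 than the largest decreases of well-counted genes. Values of genes at under 1 CPM in one group depend on edgeR's prior count.

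The genes called were then read through 33 lists by function, some of which share genes. Of their entries, 1099 were found by symbol, 4 by a spelling variant and 261 were not in the table. Shares of members called were above 12.0% in 24 lists, highest in chemokines (90%) and antimicrobial proteins (68.2%), and at or below 8.06% in 9 lists of metabolism, translation, protein folding and proliferation. The lists were chosen with earlier results known, so these shares describe the response and are not tested against each other. Counts of members below stand beside the 6.13% of all genes tested that were called higher and the 5.92% called lower.

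**Figure D2:**
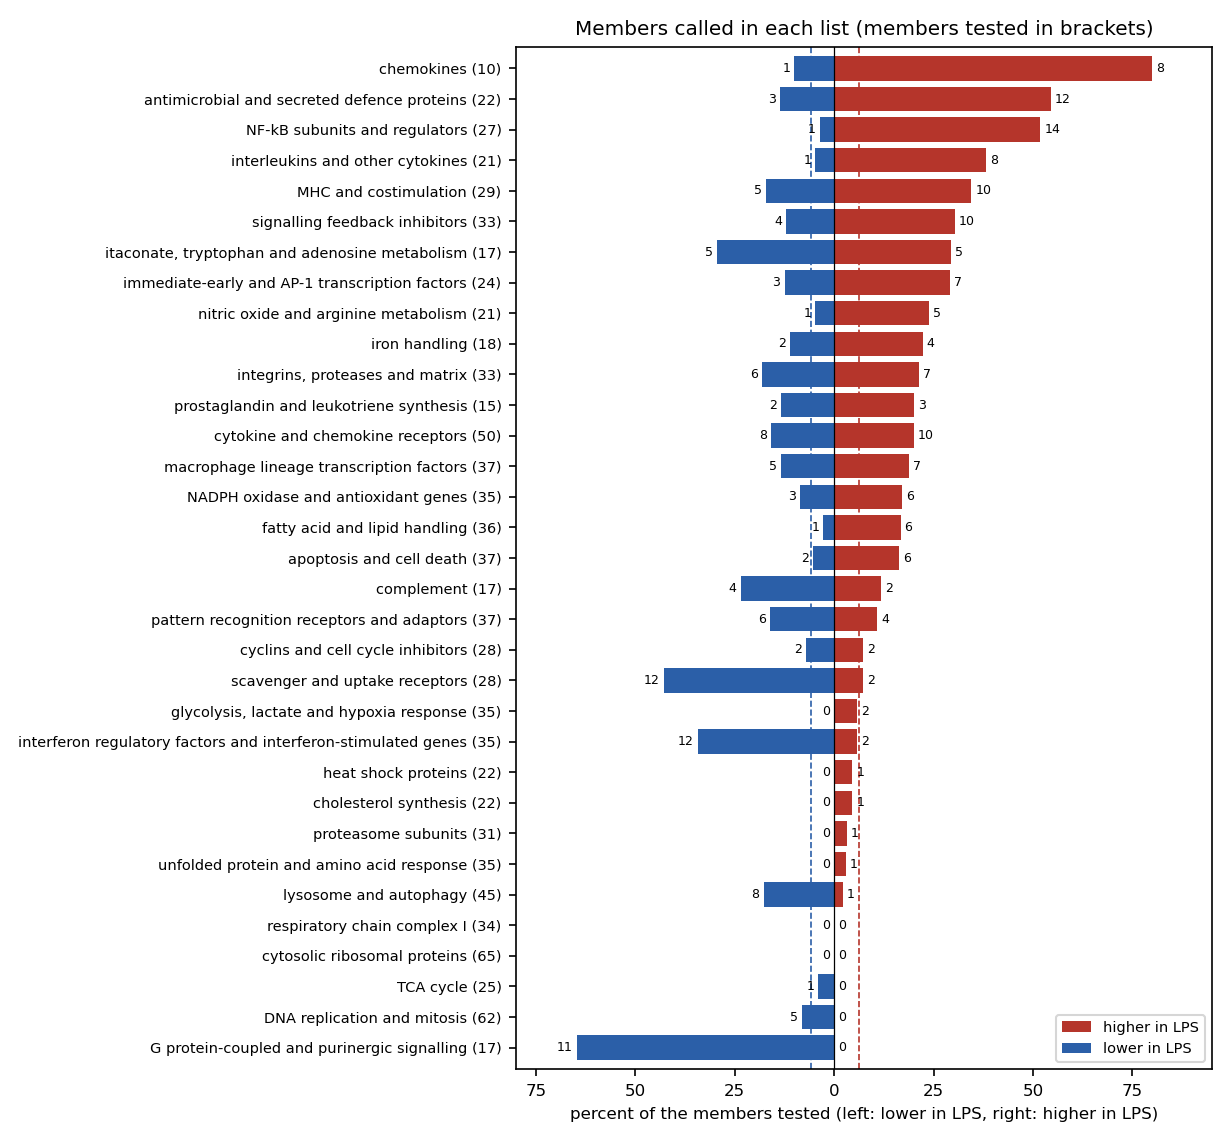
Bars to the right give the percent of tested members of each list called higher in LPS and bars to the left the percent called lower in LPS, with the number of genes at the end of each bar and the number tested in brackets. Dashed lines mark 6.13% and 5.92%, the shares of all genes tested that were called higher and lower. Chemokines lead on the right with 8 of 10 members, and the G protein-coupled and purinergic list on the left with 11 of 17.

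Chemokines had the highest median of the 33 lists. Of 10 members tested, 8 rose and 1 fell, and the median log2 fold change was 3.71, against -0.0015 over all genes tested. IL8L1 and IL8L2, the 2 chicken relatives of the neutrophil attractant CXCL8, are neighbours at chr4:50430778-50434071 and chr4:50443423-50446598 on GRCg7b. IL8L2 was measured at 407, 437 and 388 CPM in the LPS libraries, against 15, 16.1 and 16.3 CPM in the Control libraries. The groups lay far apart, a 25.9-fold difference, with a log2 fold change of 4.70 (SE 0.07) and an adjusted p of 1.4e-15 in edgeR's quasi-likelihood test. IL8L1 was measured at 193, 206 and 208 CPM in the LPS libraries, against 7.63, 9.53 and 8.34 CPM in the Control libraries, again with no overlap, and its log2 fold change was 4.57. Both lie within the span of RASSF6, a Ras-association domain gene, which went the other way and fell (-0.91).

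CCL5, which attracts T cells and monocytes, had the highest ratio among well-counted genes. It was at 40.2, 45.5 and 42.04 CPM in the LPS libraries, against 0.522, 0.259 and 0.397 CPM in the Control libraries. The Control libraries held only 8, 4 and 7 counts of it, and the log2 fold change was 6.73 ± 0.17 (SE) in edgeR, with an adjusted p of 2.4e-13. Its neighbours on chromosome 19, CCL4 and CCLL4, also rose. CCL4 was at 69.9, 75.01 and 68.8 CPM in the LPS libraries, against 8.87, 7.39 and 11.2 CPM in the Control libraries, and the log2 fold changes of CCL4 and CCLL4 were 2.95 and 2.39. The CXCL13-like genes, relatives of a B cell attractant, were barely counted in Control. CXCL13L2 had 55, 77 and 78 counts in the LPS libraries, against 0, 1 and 5 counts in the Control libraries, and CXCL13L3 had 38, 27 and 34 counts in the LPS libraries, against 5, 0 and 0 counts in the Control libraries. CX3CL1, the membrane-bound chemokine fractalkine, also rose from few counts, with 16, 29 and 19 in LPS and 2, 5 and 5 in Control. CCL26 was the only chemokine called lower, at 60.7, 55.2 and 51.9 CPM in LPS, against 88.1, 78.9 and 95.96 CPM in Control, and with Control replicate 3 left out it was no longer called.

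Among interleukins and other cytokines, 8 of 21 tested members rose and 1 fell. The share called was 42.9%, against 12.0% of all genes tested. The median log2 fold change was 0.07, so the increases did not extend to the typical tested member. Only 28 of the 56 listed genes were in the table. IL6 and TNF were among those not in it, so their response could not be seen here. IL1B, the main secreted cytokine of the inflammasome pathway, was at 924, 1015 and 926 CPM in the LPS libraries, against 25.2, 20.4 and 27.4 CPM in the Control libraries. Every LPS library was above every Control library, by 39.2-fold on average, with a log2 fold change of 5.29 (SE 0.09) and an adjusted p of 4.3e-15 in edgeR. CSF3, the granulocyte growth factor, was at 11.4, 11.8 and 13.02 CPM in the LPS libraries, against 1.11, 0.713 and 0.284 CPM in the Control libraries, a log2 fold change of 4.12. The other increases were far smaller. They were IL16 (0.85), LITAF (0.82), a regulator of TNF genes first found through its induction by LPS, the anti-inflammatory cytokine IL10 (0.82), TGFB1 (0.76), the macrophage growth factor CSF1 (0.74) and the IL-1 relative IL18 (0.66). IL12B, a chain of IL-12 and IL-23, was at 13.1, 13.1 and 13.5 CPM in LPS, against 8.74, 9.53 and 9.31 CPM in Control, which passed the FDR but not the fold-change minimum. VEGFA, a growth factor of blood vessels, was the member that fell (-0.82), although LPS replicate 1, at 6.60 CPM, was near the lowest Control library at 6.98 CPM. Without LPS replicate 1 the number of members that fell was 2.

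**Figure D3:**
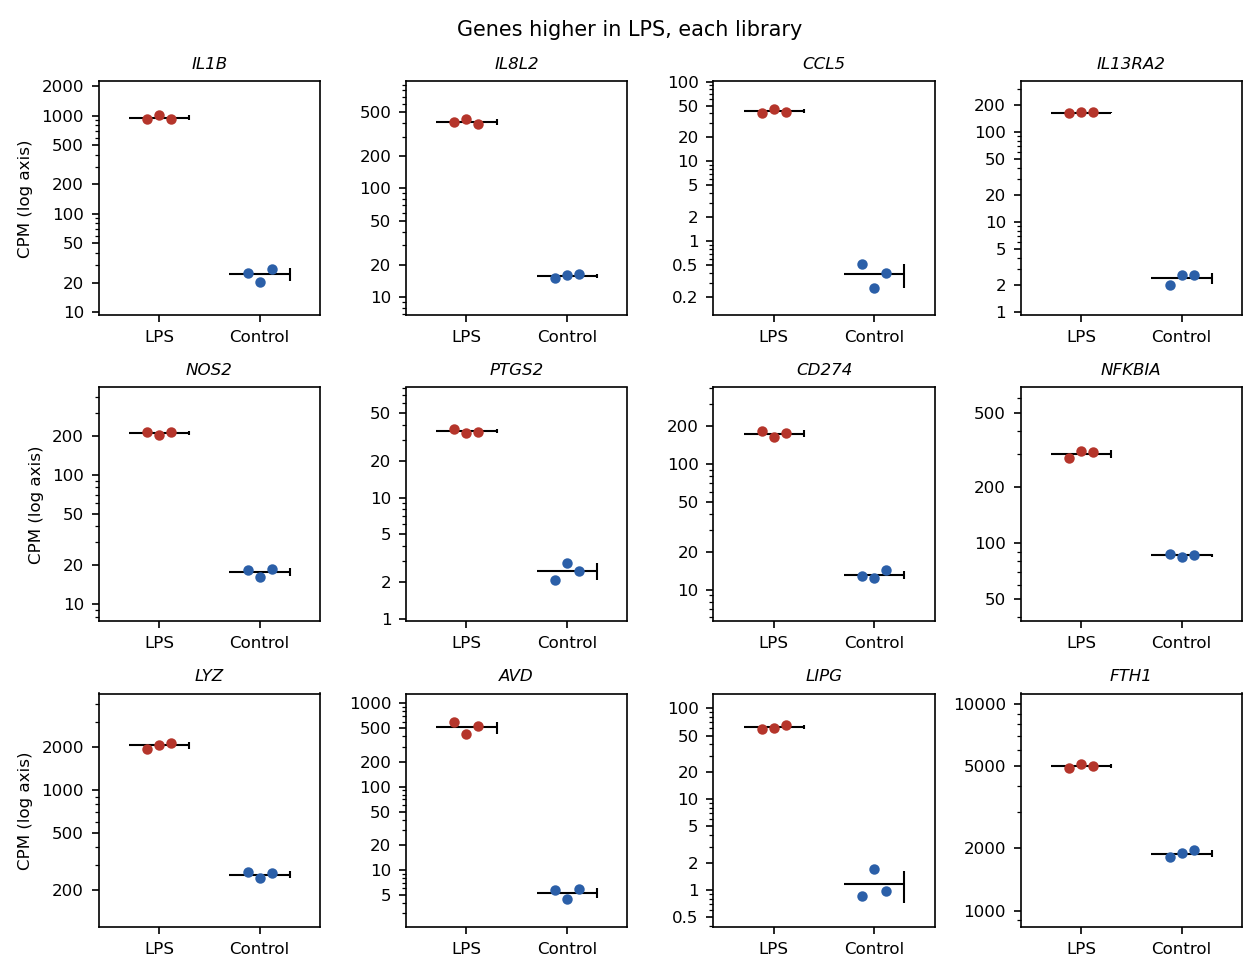
Each panel shows the level of 1 gene in CPM on a log axis, with a point per library, LPS in red and Control in blue. Horizontal lines are group means and vertical lines at their right end the SD (n = 3 each). In all 12 genes the LPS libraries lie above the Control libraries, from 2.65-fold in FTH1 to 106-fold in CCL5. The Control replicates of CCL5 and LIPG, at low levels, are spread more widely than the replicates in the other panels.

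Receptors of cytokines and chemokines moved both ways, with 10 of 50 tested members higher and 8 lower in LPS. The median log2 fold change was -0.04, and the share called was 36.0%, against 12.0% of all genes tested. The 3 largest increases were receptor chains that bind without signalling or need partners to signal. IL13RA2, a decoy receptor of IL-13, was at 162, 166 and 166 CPM in the LPS libraries, against 2.02, 2.59 and 2.55 CPM in the Control libraries. The ratio was 68.3-fold, with a log2 fold change of 6.09 (SE 0.09) and an adjusted p of 1.4e-15 in edgeR. The uncharacterized gene LOC121110552, whose span overlaps the end of IL13RA2, had 81, 85 and 78 counts in LPS and 0, 2 and 0 counts in Control, and reads of this pair of genes cannot be told apart without the strand. IL1R2, the decoy receptor of IL-1, was at 55.1, 54.6 and 56.03 CPM in the LPS libraries, against 7.37, 6.49 and 8.17 CPM in the Control libraries, with no overlap. IL2RA, the alpha chain of the IL-2 receptor, was at 19.4, 15.8 and 16.97 CPM in the LPS libraries, against 2.02, 1.30 and 2.44 CPM in the Control libraries. Their log2 fold changes were 2.91 and 3.16. IL13RA1, the signalling chain for IL-13, rose as well (1.87), as did IL22RA1 (1.15), IFNGR2 (0.86), CD40 (0.85), TNFRSF9 (0.73), IL4R (0.68) and TNFRSF10B (0.62). With single libraries left out, IL22RA1 kept the call only without Control replicate 3.

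The members that fell included receptors of growth factors and chemokines. CSF1R, the receptor of CSF1, was at 49.5, 53.05 and 56.2 CPM in the LPS libraries, against 358, 357 and 331 CPM in the Control libraries. It was 6.59-fold lower in LPS, with a log2 fold change of -2.72 (SE 0.06) and an adjusted p of 7.5e-14 in edgeR, while its ligand CSF1 rose to 841 ± 21.4 CPM in LPS, against 502 ± 33.8 CPM in Control (SD, n = 3 each). CSF2RA, the alpha chain of the GM-CSF receptor, had a log2 fold change of -1.29. The chemokine receptor CCR2, which draws monocytes into tissue, was at 14.5, 12.6 and 15.6 CPM in the LPS libraries, against 45.5, 40.9 and 41.9 CPM in the Control libraries. The groups did not overlap, and its log2 fold change was -1.59, but its annotated span overlaps that of another gene. CXCR1, a receptor of CXCL8 in mammals, also fell (-1.16), together with TNFRSF1A (-0.85), a TNF receptor, TNFRSF4 (-0.95) and IL15RA (-0.65).

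Of 37 tested sensors of microbes and their adaptors 4 rose and 6 fell, a share called of 27.0%, against 12.0% of all genes tested, with log2 fold changes of -2.59 to 1.26. TLR4 itself was at 71.6, 71.5 and 80.7 CPM in the LPS libraries, against 59.7, 64.3 and 60.1 CPM in the Control libraries. That is a log2 fold change of 0.28 with an adjusted p of 0.0056 in edgeR, below the fold-change minimum. Its partner LY96 (-0.49) and the adaptors MYD88 (-0.22) and TICAM1 (0.46) were not called either. TLR2A, a receptor of bacterial lipoproteins, fell to 21.7 ± 2.09 CPM in LPS, against 57.5 ± 4.78 CPM in Control (SD, n = 3 each). TLR3, which binds double-stranded RNA, had a log2 fold change of -1.90 at 2.46, 0.951 and 1.64 CPM in LPS, against 5.54, 7.59 and 5.73 CPM in Control. TLR5, the flagellin receptor, was near the detection limit, with 4, 4 and 2 counts in the LPS libraries, against 31, 23 and 20 counts in the Control libraries. UNC93B1, which carries nucleic acid sensors to endosomes, fell (-1.08), and so did LY86 (-0.72), the partner of the TLR4 relative CD180, and the RNA helicase sensor IFIH1 (-0.59). The members that rose were the kinase IRAK2, at 557, 545 and 571 CPM in LPS, against 231, 238 and 229.8 CPM in Control, TRAF3 (1.05), NLRC5 (0.85) and IKBKE (0.82).

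Of 27 tested regulators of NF-kB 14 rose and 1 fell, with a median log2 fold change of 0.60 and a range of -1.31 to 2.61. The member that fell is counted but not named here. Of the subunits, NFKB1 rose to 196 ± 1.66 CPM in LPS, against 111 ± 4.22 CPM in Control (SD, n = 3 each), whereas NFKB2 was at 157, 146 and 159 CPM in LPS, against 139, 132 and 136 CPM in Control. Its log2 fold change of 0.18 was below the minimum. RELA and REL were not called, with log2 fold changes of 0.10 and 0.10, and their libraries overlapped between groups. NFKBIA, the inhibitor that holds NF-kB in the cytoplasm, was at 284, 309.6 and 307 CPM in the LPS libraries, against 87.1, 83.8 and 86.8 CPM in the Control libraries. Its log2 fold change was 1.80, with an SE of 0.06 and an adjusted p of 1.8e-12 in edgeR. TNFAIP3, a ubiquitin-editing enzyme that stops signalling, was at 212, 210.2 and 209.6 CPM in the LPS libraries, against 64.6, 75.6 and 65.9 CPM in the Control libraries. NFKBIZ, a nuclear co-regulator of late NF-kB targets, was at 133, 132 and 135 CPM in the LPS libraries, against 35.4, 34.1 and 36.4 CPM in the Control libraries. None of these 3 genes overlapped between groups. NFKBIE (1.29), TNIP1 (1.08), TNIP2 (1.28), TNIP3 (2.61) and the deubiquitinase CYLD (0.60) were other inhibitors that rose. TNIP3 had no more than 29 counts in a library.

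Members that act at receptors of the TNF family also rose. BIRC2, an inhibitor of apoptosis and brake on the alternative NF-kB pathway, was at 228, 224 and 239 CPM in the LPS libraries, against 56.9, 57.1 and 56.9 CPM in the Control libraries. TRAF2 was at 263, 279.7 and 276 CPM in the LPS libraries, against 92.4, 92.7 and 92.2 CPM in the Control libraries. The log2 fold changes were 2.02 and 1.56, and 1.47 for TRAF1. The kinases MAP3K8 (1.06) and MAP3K14 (0.89) also rose, while the kinases IKBKB and CHUK were not called.

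Feedback inhibitors of signalling rose in 10 and fell in 4 of 33 tested members, with a median log2 fold change of 0.16. DUSP8 and DUSP10, phosphatases of the stress kinases JNK and p38, had log2 fold changes of 2.11 and 1.19. ZC3H12A, a ribonuclease that degrades cytokine transcripts, was at 927, 946 and 981 CPM in the LPS libraries, against 472, 458 and 433 CPM in the Control libraries. SOCS3, which blocks cytokine receptor signalling, was at 97.5, 101 and 96.1 CPM in the LPS libraries, against 49.4, 45.5 and 56.2 CPM in the Control libraries. Neither overlapped between groups, and the log2 fold changes were 1.06 and 0.96, with 0.73 in SOCS1 and 0.85 in SOCS2. The ubiquitin ligase PELI2 (1.06), the phosphatases DUSP16 (0.95) and DUSP5 (0.67) and the RNA decay factor ZFP36L1 (0.59) also rose. With single libraries left out, ZFP36L1 kept the call only without Control replicate 3. The members that fell were the phosphatases DUSP4 (-0.68) and DUSP6 (-0.69), SPRY2 (-1.04), which restrains growth factor receptors, and ZC3H12D (-1.88).

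Among the immediate-early and AP-1 factors, 7 of 24 rose and 3 fell. BATF3, a leucine zipper partner of JUN, led with 69.7, 77.9 and 83.6 CPM in the LPS libraries, against 9.59, 10.2 and 10.2 CPM in the Control libraries. It was raised 7.69-fold, with a log2 fold change of 2.94 and an adjusted p of 2e-12 in edgeR. ATF3 (1.29), JUN (1.08), MAFF (0.98), JUND (0.96), MAFK (0.73) and SRF (0.60) followed. FOS was at 89.3, 92.6 and 74.9 CPM in LPS, against 102, 95.2 and 114 CPM in Control, which was not called. The zinc finger factors KLF2 and KLF4 fell, KLF4 to 22.2 ± 2.63 CPM in LPS, against 63.2 ± 1.74 CPM in Control (SD, n = 3 each). KLF2 had a log2 fold change of -1.28, and the nuclear receptor NR4A3 fell by 2.04 on the log2 scale.

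Interferon-stimulated genes and interferon regulatory factors went down more often than up, with 12 of 35 tested members lower, 2 higher and a median log2 fold change of -0.37. OASL, an oligoadenylate synthetase family member that senses and restricts viral RNA, was at 14.5, 13.98 and 13.2 CPM in the LPS libraries, against 58.8, 45.1 and 54.1 CPM in the Control libraries. The log2 fold change was -1.92 with a standard error of 0.10 (adjusted p = 1.5e-09 in edgeR). CMPK2, a nucleotide kinase, and RSAD2, the antiviral enzyme viperin, are neighbours on chromosome 3 and both fell. CMPK2 was at 9.29, 8.93 and 7.89 CPM in the LPS libraries, against 31.4, 28.99 and 29.7 CPM in the Control libraries. RSAD2 was at 1.77, 0.512 and 1.86 CPM in the LPS libraries, against 5.41, 4.93 and 5.90 CPM in the Control libraries. IFIT5, which binds viral RNA, had 16, 17 and 12 counts in the LPS libraries, against 145, 168 and 161 counts in the Control libraries. In all of these genes the LPS libraries were below the Control libraries. SAMD9L (-2.33), IFITM5 (-1.71), DDX60 (-1.09), TRIM25 (-0.73), EPSTI1 (-0.67) and UBE2L6 (-0.60) also fell. The listed genes IFITM1, IFITM2 and IFITM3 were not in the table. Not every member that fell is named here.

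Of the transcription factors in this list, IRF8, a factor that macrophages need for their development, was at 283, 293 and 284 CPM in the LPS libraries, against 781, 689.5 and 707 CPM in the Control libraries. It was 2.53-fold lower in LPS with no overlap between groups. IRF4 rose, at 7.53, 9.59 and 7.44 CPM in LPS, against 2.67, 2.01 and 3.29 CPM in Control, and NMI was the other member that rose (0.66). IRF1 (0.25), IRF7 (0.12) and MX1 (-0.37) were not called, and libraries of IRF7 and MX1 overlapped between groups.

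Antimicrobial and secreted defence proteins rose in 12 of 22 tested members and fell in 3, with a median log2 fold change of 0.81. AVD, avidin, the biotin-binding protein of egg white, was at 597, 427 and 529 CPM in the LPS libraries, against 5.67, 4.47 and 5.84 CPM in the Control libraries. The ratio was 96.6-fold, the second highest among well-counted genes after CCL5, with a log2 fold change of 6.59 (SE 0.13) and an adjusted p of 2e-14 in edgeR. LYZ, the lysozyme that cleaves bacterial cell walls, was at 1938, 2075 and 2156 CPM in the LPS libraries, against 267, 242 and 264 CPM in the Control libraries. Its log2 fold change was 3.00, and LYG2, a goose-type lysozyme, rose too (2.01). EXFABP, a lipocalin that binds bacterial iron carriers, had 15, 10 and 10 counts in LPS and 0 counts in all 3 Control libraries. Set against a floor of 3 counts per library, it was at least 4.69-fold higher in LPS.

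All 8 genes of the avian beta-defensins that were tested had positive log2 fold changes, and 7 of them rose. AvBD5 was at 163, 190.1 and 180.3 CPM in the LPS libraries, against 57.8, 53.5 and 66.05 CPM in the Control libraries. The log2 fold changes of the others that rose were 2.19 in AvBD8, 1.45 in AvBD3, 0.96 in AvBD4, 0.84 in AvBD7, 0.79 in AvBD1 and 0.70 in AvBD6, and AvBD14 (0.95) was not called. Defensins are small genes of 1 family. How the counting treated reads shared between near-identical copies is not given in the sources used here, so their levels are uncertain. Of the 4 cathelicidins tested, peptides that kill bacteria, CATHB1 rose, at 9.06, 11.4 and 11.98 CPM in LPS, against 0.978, 1.69 and 1.59 CPM in Control, while the other 3 were not called. RNASE6, a secreted ribonuclease with antimicrobial activity, was at 23.1, 28.7 and 26.2 CPM in the LPS libraries, against 81.9, 80.2 and 87.3 CPM in the Control libraries. It fell (-1.68), as did TF (-0.80), the iron-binding ovotransferrin, and LYGL (-1.34), another goose-type lysozyme.

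Genes of nitric oxide production changed at the level of the enzyme, its cofactor and its substrate supply. NOS2, the inducible nitric oxide synthase, was at 214, 202 and 212 CPM in the LPS libraries, against 18.3, 16.1 and 18.6 CPM in the Control libraries. It was raised 11.8-fold, with a log2 fold change of 3.56 (SE 0.07) and an adjusted p of 1.4e-14 in edgeR. GCH1, the first enzyme in making the cofactor tetrahydrobiopterin, was at 65.3, 58.3 and 70.9 CPM in the LPS libraries, against 20.1, 20.2 and 20.03 CPM in the Control libraries. SLC7A3, a transporter of arginine, was at 619, 622 and 583 CPM in the LPS libraries, against 134, 131 and 140.2 CPM in the Control libraries. No library of these 3 genes overlapped between groups, and the log2 fold changes were 1.69 in GCH1 and 2.17 in SLC7A3. The related transporter SLC7A1 had 52, 46 and 51 counts in the LPS libraries, against 3, 9 and 6 counts in the Control libraries, a log2 fold change of 3.29. OAT, which uses ornithine, rose (0.79), and ASS1, which remakes arginine from citrulline, fell to 224 ± 9.37 CPM in LPS, against 367 ± 15.9 CPM in Control (SD, n = 3 each). Of 21 tested members of this list 5 rose and 1 fell, a share called of 28.6%, against 12.0% of all genes tested. ARG2, the arginase that competes for arginine, was not called (0.22).

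Of 15 tested genes of prostaglandin and leukotriene synthesis, 3 rose and 2 fell, a share called of 33.3%, against 12.0% of all genes tested. PTGS2, the inducible cyclooxygenase, was at 36.9, 34.4 and 34.8 CPM in the LPS libraries, against 2.09, 2.85 and 2.50 CPM in the Control libraries. The ratio was 14.2-fold with no overlap (adjusted p = 5.7e-12 in edgeR), and its span overlaps that of PLA2G4A, a phospholipase that was not called (0.54). HPGDS, which makes prostaglandin D2, and ALOX5AP, the partner of 5-lipoxygenase, rose (0.96 and 1.24). TBXAS1, thromboxane synthase, was at 28.8, 29.8 and 25.4 CPM in the LPS libraries, against 80.4, 77.1 and 76.2 CPM in the Control libraries. It fell (-1.48), and LTA4H, which makes leukotriene B4, was just past the threshold (-0.59). Leaving out LPS replicate 1, Control replicate 1 or Control replicate 2 ended the call of LTA4H.

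Small-molecule metabolism with immune roles split evenly, with 5 higher and 5 lower of 17 tested members. IL4I1, an oxidase of aromatic amino acids, was at 13.4, 11.4 and 10.8 CPM in the LPS libraries, against 0.391, 0.454 and 0.568 CPM in the Control libraries. ACOD1, which makes itaconate, was at 2.76, 3.73 and 3.94 CPM in the LPS libraries, against 0.652, 0.649 and 0.624 CPM in the Control libraries. Both rose with no overlap from low Control levels, with log2 fold changes of 4.62 and 2.43. The adenosine genes moved in a mixed way. NT5E, which makes adenosine outside the cell, rose (0.95), as did the receptor ADORA2B (0.83), whereas the receptor ADORA2A (-0.94), the deaminase ADA (-1.21) and ENTPD1 (-0.96), which degrades extracellular ATP, fell. BST1 (0.82) rose, and HAAO (-0.96) and the nucleotide receptor P2RY2 (-0.75) fell.

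Antigen presentation and costimulation rose in 10 and fell in 5 of 29 tested members. CD274, the inhibitory ligand PD-L1, was at 184, 162 and 176 CPM in the LPS libraries, against 12.8, 12.3 and 14.2 CPM in the Control libraries. It was raised 13.3-fold, with a log2 fold change of 3.73 (SE 0.08) and an adjusted p of 2.7e-14 in edgeR. CD83, a marker of mature dendritic cells, was at 43.2, 42.6 and 43.6 CPM in the LPS libraries, against 10.5, 11.03 and 9.42 CPM in the Control libraries. CD86 (1.42) and ICOSLG (1.55), ligands that costimulate T cells, HHLA2 (0.98) and CD40 (0.85) rose as well. VSIR, an inhibitory checkpoint also called VISTA, moved against CD274. It was at 28.6, 33.95 and 28.9 CPM in the LPS libraries, against 167, 179 and 156 CPM in the Control libraries. It was 5.48-fold lower in LPS, and it lies within the span of CDH23, which also fell.

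Of the class II MHC genes, BLB2, a beta chain, was at 491, 574 and 489.7 CPM in the LPS libraries, against 334, 270.2 and 332 CPM in the Control libraries. CIITA, the master regulator of class II genes, had a log2 fold change of 1.11, CD74, the invariant chain, one of 0.65, and DMB2, which helps to load peptides, one of 0.63. BLB1 was not called, at 1.23, 2.05 and 3.94 CPM in LPS, against 1.89, 1.75 and 1.25 CPM in Control, with overlap between groups and an adjusted p of 0.28 in edgeR, and its log2 fold change of 0.57 was 0.006 without LPS replicate 3. The class I gene BF1 was not called (0.14). The lipid-presenting CD1C (-1.40) and CD1B (-0.98) fell, together with VTCN1 (-0.91) and CD276 (-0.63). Without LPS replicate 2 the number that fell was 3, since VTCN1 and CD276 were then not called. VTCN1 also lost the call without LPS replicate 3, Control replicate 1 or Control replicate 2, and CD276 without Control replicate 3.

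The largest decreases among well-counted genes were in complement component C1q, which macrophages secrete and which marks immune complexes and dying cells for uptake. Its 3 chains lie side by side on chromosome 21, C1QB at chr21:6056646-6057867, C1QC at chr21:6059953-6061614 and C1QA at chr21:6062322-6064372 on GRCg7b. C1QB was at 9.29, 8.71 and 8.41 CPM in the LPS libraries, against 181, 172 and 171 CPM in the Control libraries. C1QC was at 9.21, 9.44 and 8.86 CPM in the LPS libraries, against 173, 157 and 168 CPM in the Control libraries. C1QA was at 12.2, 17.1 and 13.8 CPM in the LPS libraries, against 196, 191 and 188 CPM in the Control libraries. Within each group the 3 replicates lay close together, and LPS was 19.8-fold, 18.1-fold and 13.3-fold lower, in the order C1QB, C1QC and C1QA. In edgeR the adjusted p was 4.3e-15, 6.5e-15 and 1.4e-13. The protease C1S moved the other way (1.40), at 75.9, 84.7 and 83.3 CPM in LPS, against 28.6, 31 and 32.6 CPM in Control, and C1R was not called (0.24). CFD, the protease that starts the alternative pathway, had 173 counts in the LPS libraries together and 5 in the Control libraries, a ratio of 41.7 with a 95% interval of 17.5 to 130 from counting error alone. MBL2, the mannose-binding lectin, fell (-0.60), but with single libraries left out it kept the call only without LPS replicate 1. The other 11 of 17 tested complement genes, C3 among them, were not called. The share called was 35.3%, against 12.0% of all genes tested.

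**Figure D4:**
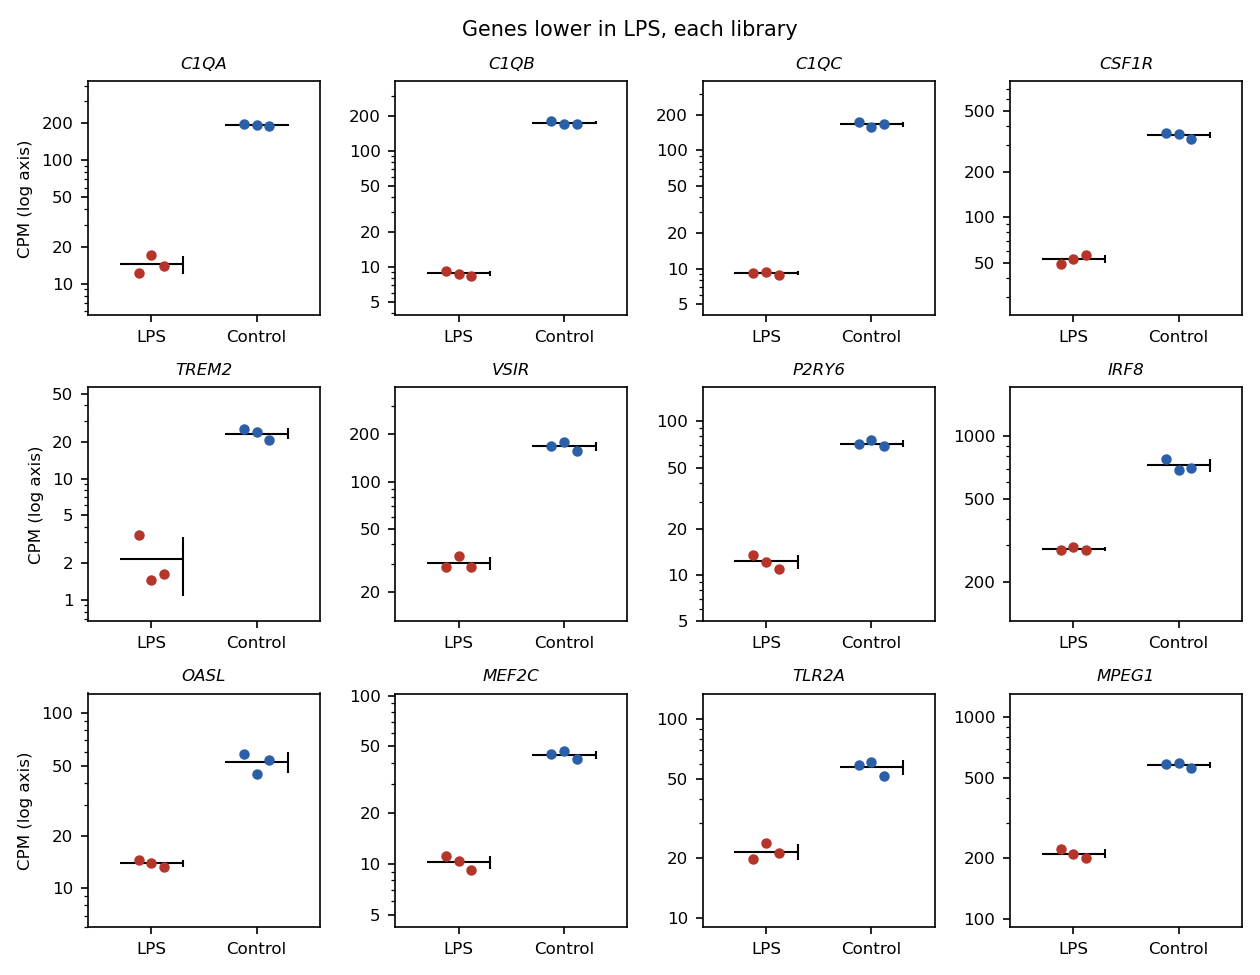
Each panel shows the level of 1 gene in CPM on a log axis, with a point per library, LPS in red and Control in blue. Horizontal lines are group means and vertical lines at their right end the SD (n = 3 each). In all 12 genes the LPS libraries lie below the Control libraries, from 2.53-fold in IRF8 to 19.8-fold in C1QB, and TREM2 shows the widest spread among LPS libraries.

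Receptors that take up particles, lipoproteins and dying cells fell in 12 of 28 tested members and rose in 2, with a median log2 fold change of -0.34. TREM2, a lipid receptor of phagocytes, was at 3.46, 1.46 and 1.64 CPM in the LPS libraries, against 25.6, 24.1 and 20.9 CPM in the Control libraries. LPS replicate 1 was above the other LPS libraries but far below Control, and the log2 fold change was -3.43 (adjusted p = 7.9e-09 in edgeR). LRP1, a very large endocytic receptor that takes up many ligands, was at 1948, 1801 and 1743 CPM in the LPS libraries, against 3015, 4130.0 and 3586 CPM in the Control libraries. It fell (-0.97), with a wider spread in Control than in LPS. MERTK, a receptor for dying cells, was at 6.68, 6.22 and 5.36 CPM in the LPS libraries, against 14.4, 12.6 and 11.8 CPM in the Control libraries. The mannose receptor MRC1 (-1.07), MARCO (-1.28), STAB1 (-0.84) and CD36 (-0.76), scavenger receptors, TIMD4 (-0.86) and ITGB5 (-0.87), which bind or help to engulf dying cells, ELMO1 (-0.64), which signals during engulfment, and ANXA1 (-1.27) fell as well. TREMB1, next to TREM2 and overlapping it, had 0, 2 and 4 counts in the LPS libraries, against 31, 27 and 24 counts in the Control libraries.

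The 2 uptake receptors that rose carry antibodies. PIGR, the polymeric immunoglobulin receptor that moves IgA across epithelia, had 162, 207 and 212 counts in LPS and 2, 1 and 1 counts in Control. The ratio was 175 with a 95% interval of 68.0 to 645 from counting error alone. Its neighbour FCMAR, named for binding of the antibody classes IgA and IgM, had 218, 196 and 214 counts in the LPS libraries, against 3, 8 and 2 counts in the Control libraries. Both overlap the uncharacterized gene LOC107055195, which rose as well, at 25.4, 23.1 and 24.8 CPM in LPS, against 2.54, 3.05 and 2.95 CPM in Control, and the share of reads that belongs to each of the 3 genes cannot be told without the strand.

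The list of G protein-coupled and purinergic signalling was the most one-sided of the lowered lists, with 11 of 17 tested members lower. The other 6 were not called, and the median log2 fold change was -1.03. G protein-coupled receptors held outside this list moved both ways, with ADORA2B and MRGPRH higher and ADORA2A and P2RY2 lower. P2RY6, a receptor of the nucleotide UDP that drives uptake of debris in microglia of mammals, was at 13.5, 12.2 and 10.9 CPM in the LPS libraries, against 70.8, 75.7 and 68.8 CPM in the Control libraries. It was 5.87-fold lower in LPS with no overlap (adjusted p = 8.7e-12 in edgeR). Of its relatives P2RY8 (-2.37), P2RY12 (-1.02), P2RY13 (-1.31) and P2RY14 (-1.03) also fell. GPR65, a sensor of acid pH, had a log2 fold change of -2.29, and the lysophosphatidic acid receptors LPAR5 and LPAR6 had -1.48 and -1.80. PMEPA1, an inhibitor of TGF-beta signalling that was placed in this list, was at 18.5, 17.6 and 18.9 CPM in the LPS libraries, against 80.6, 83.8 and 78.99 CPM in the Control libraries. EDNRB (-0.91), the endothelin receptor, and F2R (-0.66), the thrombin receptor, complete the members that fell, and the receptor of platelet-activating factor, PTAFR (0.43), was not called. No member was called higher by edgeR, where 1 had an unadjusted p under 0.05, or by limma-voom, whereas DESeq2 called 2 and limma on quantile-normalized values called 1. Leaving out single libraries gave 1 or 2 members higher in each case.

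Transcription factors of the macrophage lineage split, with 7 of 37 tested members higher and 5 lower. The share called was 32.4%, against 12.0% of all genes tested. SPI1, or PU.1, which defines myeloid cells, rose to 674 ± 19.6 CPM in LPS, against 400.0 ± 9.09 CPM in Control (SD, n = 3 each). CEBPB, a factor of inflammatory genes, was at 1487, 1613 and 1544 CPM in the LPS libraries, against 741, 709 and 771 CPM in the Control libraries. ETS2 (1.41), BHLHE40 (1.05), CEBPA (0.94), RUNX1 (0.81) and ETV6 (0.69) were the others that rose. MEF2C, which acts in myeloid and muscle cells, was at 11.1, 10.4 and 9.23 CPM in the LPS libraries, against 45.1, 46.8 and 41.99 CPM in the Control libraries. MAF, a factor of tissue-resident macrophages, was at 1.92, 3.59 and 2.53 CPM in the LPS libraries, against 6.85, 7.91 and 8.17 CPM in the Control libraries. Both fell with no overlap (-2.12 and -1.51), as did BHLHE41 (-1.30) and the inhibitors of differentiation ID2 (-0.79) and ID3 (-0.96).

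Lysosomal genes fell in 8 of 45 tested members and rose in 1. DNASE2B, a lysosomal nuclease, was at 9.29, 7.90 and 8.63 CPM in the LPS libraries, against 48.4, 47.3 and 45.8 CPM in the Control libraries. ATP6V0D2, a proton pump subunit typical of macrophages and osteoclasts, was at 3.23, 3.88 and 2.53 CPM in the LPS libraries, against 13.6, 11.3 and 12.7 CPM in the Control libraries. The cathepsins CTSZ (-1.16), CTSC (-0.95), CTSH (-0.68) and CTSB (-0.64), the lipase LIPA (-0.66) and the membrane protein LAMP1 (-0.65) fell by less. CD63, a tetraspanin of lysosomes and exosomes, was the member that rose, at 776, 837 and 810.4 CPM in the LPS libraries, against 339.6, 291 and 320.1 CPM in the Control libraries. Pump subunits other than ATP6V0D2 and the autophagy genes tested were not called, with SQSTM1 at 0.38 and CTSD at 0.26.

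Proteases and matrix genes changed in both directions, 7 higher and 6 lower of 33 tested. The share called was 39.4%, against 12.0% of all genes tested. MMP27 and MMP1, neighbouring matrix metalloproteinases on chromosome 1, rose steeply. MMP27 was at 35.2, 34.4 and 30.8 CPM in the LPS libraries, against 1.56, 1.62 and 0.738 CPM in the Control libraries. MMP1 had 179, 196 and 167 counts in the LPS libraries, against 4, 8 and 16 counts in the Control libraries. CD44, the hyaluronan receptor, was at 276, 249 and 281 CPM in the LPS libraries, against 101, 97.3 and 93.1 CPM in the Control libraries, and TNFAIP6 (2.40), which binds hyaluronan, ADAMTS9 (1.93), TIMP3 (0.76) and TGFBI (0.65) rose too. Genes that fell were the matrix glycoprotein TNC (-1.90), the gelatinase MMP2 (-1.49), the proteoglycan VCAN (-1.29) and osteopontin SPP1 (-1.01). The integrin chain ITGB5 (-0.87) and the plasminogen activator PLAU (-0.61) fell too. PLAU was not called without LPS replicate 1, LPS replicate 2, Control replicate 1 or Control replicate 3.

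In the list of cell death genes, 6 of 37 rose and 2 fell, a share called of 21.6%, against 12.0% of all genes tested. NINJ1, which breaks the plasma membrane of dying cells, was at 175, 182 and 171 CPM in the LPS libraries, against 35.4, 36.6 and 32.8 CPM in the Control libraries. RIPK3, the kinase of necroptosis, was at 33.9, 32.3 and 36.7 CPM in the LPS libraries, against 16.4, 14.5 and 14.98 CPM in the Control libraries. BIK (1.39), the death receptor TNFRSF10B (0.62) and the survival protein MCL1 (0.62) rose in addition to BIRC2, while PMAIP1 (-1.23), which promotes apoptosis, and BCL2A1 (-0.96), which prevents it, fell. Caspases were not called. Without LPS replicate 3 or Control replicate 2 the call of PMAIP1 was lost.

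Iron genes shifted in 6 of 18 tested members, 4 higher and 2 lower, a share called of 33.3%, against 12.0% of all genes tested. FTH1, the ferritin heavy chain that stores iron, was at 4910.0, 5121 and 5013 CPM in the LPS libraries, against 1823, 1892 and 1955 CPM in the Control libraries. The ratio was 2.65-fold, with a log2 fold change of 1.41 (SE 0.05) and an adjusted p of 1.7e-11 in edgeR. HEPHL1, a relative of ferroxidases, was at 73.9, 76.2 and 70.9 CPM in the LPS libraries, against 12.1, 10.9 and 12.03 CPM in the Control libraries, and the reductase STEAP3 (0.77) and the transferrin receptor TFRC (0.66) rose by less. SLC11A1, the metal transporter of phagosomes also called NRAMP1, fell to 330.4 ± 6.38 CPM in LPS, against 617 ± 25.4 CPM in Control (SD, n = 3 each). NCOA4, which sends ferritin to degradation, fell as well (-0.80), and the exporter SLC40A1 was not called (-0.28).

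Among the genes of the NADPH oxidase and antioxidant defence, 6 of 35 rose and 3 fell. The share called was 25.7%, against 12.0% of all genes tested. The phagocyte oxidase subunits CYBB (0.81), NCF1C (1.41) and NCF4 (0.81) rose, NCF1C being at 160.0, 169.5 and 183 CPM in LPS, against 63.7, 64.9 and 64.01 CPM in Control, and CYBA (0.26) was not called. PRDX1, a peroxidase, was at 1202, 1289 and 1256 CPM in the LPS libraries, against 722, 650.1 and 700.0 CPM in the Control libraries. Of other targets of the antioxidant factor NFE2L2, TXNRD1 fell (-0.63), and HMOX1 (0.22) and SRXN1 (0.34) were not called. The stress-induced sestrins SESN2 (0.73) and SESN3 (0.78) rose and SESN1 (-0.81) fell, and the glutathione transferase GSTA3 fell (-0.94).

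Few genes of energy metabolism changed by more than 1.5-fold. Of 35 tested genes of glycolysis and the hypoxia response, 2 were called, a share of 5.71% against 12.0% of all genes tested. ADM, the vasodilator peptide adrenomedullin, was at 18.97, 25.7 and 22.4 CPM in the LPS libraries, against 1.24, 0.584 and 1.14 CPM in the Control libraries. SLC2A6, a lysosomal relative of glucose transporters, was at 88.2, 88.1 and 83.5 CPM in the LPS libraries, against 37.6, 34.6 and 37.9 CPM in the Control libraries. The glucose transporter SLC2A1 (0.40), the hexokinase HK2 (0.56), LDHA (-0.38) and HIF1A (0.24) were not called. In the TCA cycle 1 of 25 tested genes was called, IDH1, the cytosolic isocitrate dehydrogenase (-0.59), and in cholesterol synthesis 1 of 22, which rose. At FDR below 0.05 without the fold-change minimum, 14 of the 22 cholesterol synthesis genes were higher and 2 lower. In the TCA cycle 10 were higher and 1 lower, and in glycolysis and hypoxia 12 and 5. Of all 13008 genes tested, 2346 were higher and 2145 lower by this rule. Without Control replicate 3 the number of glycolysis and hypoxia genes that rose was 5, without LPS replicate 3 IDH1 was not called, and without LPS replicate 1 the cholesterol list had 1 member lower.

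Lipid handling moved in 7 of 36 tested genes, 6 of them higher, a share called of 19.4%, against 12.0% of all genes tested. LIPG, a lipase of lipoproteins and phospholipids, was at 59.1, 61.2 and 66.2 CPM in the LPS libraries, against 0.848, 1.69 and 0.965 CPM in the Control libraries. It was raised 53.3-fold, with a log2 fold change of 5.74 and an adjusted p of 3.3e-13 in edgeR. ACSL1, which activates fatty acids, was at 198, 173 and 176 CPM in the LPS libraries, against 39.2, 45.2 and 42.9 CPM in the Control libraries. FADS6 (1.99), the desaturase SCD (0.63), PPARA (0.62) and CH25H (0.90), which makes 25-hydroxycholesterol, rose, and ABCA1, which exports cholesterol, fell to 58.9 ± 3.08 CPM in LPS, against 122 ± 3.32 CPM in Control (SD, n = 3 each). Without LPS replicate 2 or Control replicate 2 the number that fell was 2.

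Of 62 tested genes of DNA replication and mitosis 57 had negative log2 fold changes, against 6529 of all 13008 genes tested, with a median of -0.31. Of the 62 genes, 5 fell by more than 1.5-fold, a share of 8.06%, against 5.92% of all genes tested. At FDR below 0.05 without the fold-change minimum, 45 of the 62 were lower and 2 higher. All 13008 genes tested held 2145 lower and 2346 higher by that rule. No member was called higher by edgeR, DESeq2, limma-voom or limma on quantile-normalized values, and 2 had positive changes with an unadjusted p under 0.05 in edgeR. Among the 5 were POLA1, the catalytic subunit of DNA polymerase alpha, the proliferation marker MKI67 and the kinetochore proteins CENPE and CENPF. POLA1 was at 108, 97.5 and 98.97 CPM in the LPS libraries, against 169.6, 167 and 167 CPM in the Control libraries. PCNA, the sliding clamp, was at 290.2, 311 and 298 CPM in the LPS libraries, against 398, 374 and 399 CPM in the Control libraries, a difference without overlap that was below the fold-change minimum (-0.38).

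MKI67, CENPE and CENPF are among the 28 genes in which LPS replicate 1 stood apart. MKI67 was at 269, 87.3 and 119 CPM in the LPS libraries, against 317, 414 and 341 CPM in the Control libraries. CENPE was at 76.4, 16.1 and 20.8 CPM in the LPS libraries, against 82.7, 109.5 and 95.5 CPM in the Control libraries. CENPF was at 85.1, 14.2 and 23.1 CPM in the LPS libraries, against 95.5, 167 and 132 CPM in the Control libraries. In each of these 3 genes LPS replicate 1 lay near the Control libraries. With all libraries the log2 fold changes were -1.17 in MKI67, -1.35 in CENPE and -1.69 in CENPF, and without LPS replicate 1 they were -1.80, -2.39 and -2.83. Leaving that library out gave 6 members lower and a median of -0.33 for the list, against 5 members and -0.31 with it. DESeq2 and limma on quantile-normalized values each called 2 members lower. CEP290, a centrosome and cilium protein outside the list, was at 21.3, 4.54 and 6.995 CPM in the LPS libraries, against 17.2, 30.2 and 25.8 CPM in the Control libraries, and its libraries overlapped between groups. When genes were put in 10 bins by annotated span, introns included, 4.2% were called lower in the shortest bin and 8.0% in the longest. The lowest share was 2.4%, in bin 2 from the shortest. In the shortest and longest bins the shares called higher were 7.5% and 7.0%, and the median log2 fold changes were 0.081 and -0.038. Median log2 deviations from the Control mean in these bins were 0.047 and -0.001 in LPS replicate 1. They were 0.124 and -0.078 in LPS replicate 2 and 0.081 and -0.027 in LPS replicate 3. In Control replicates 1 to 3 they were 0.032 and -0.018, -0.099 and 0.052, and 0.065 and -0.033. What sets LPS replicate 1 apart, the length of genes included, was not tested.

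**Figure D5:**
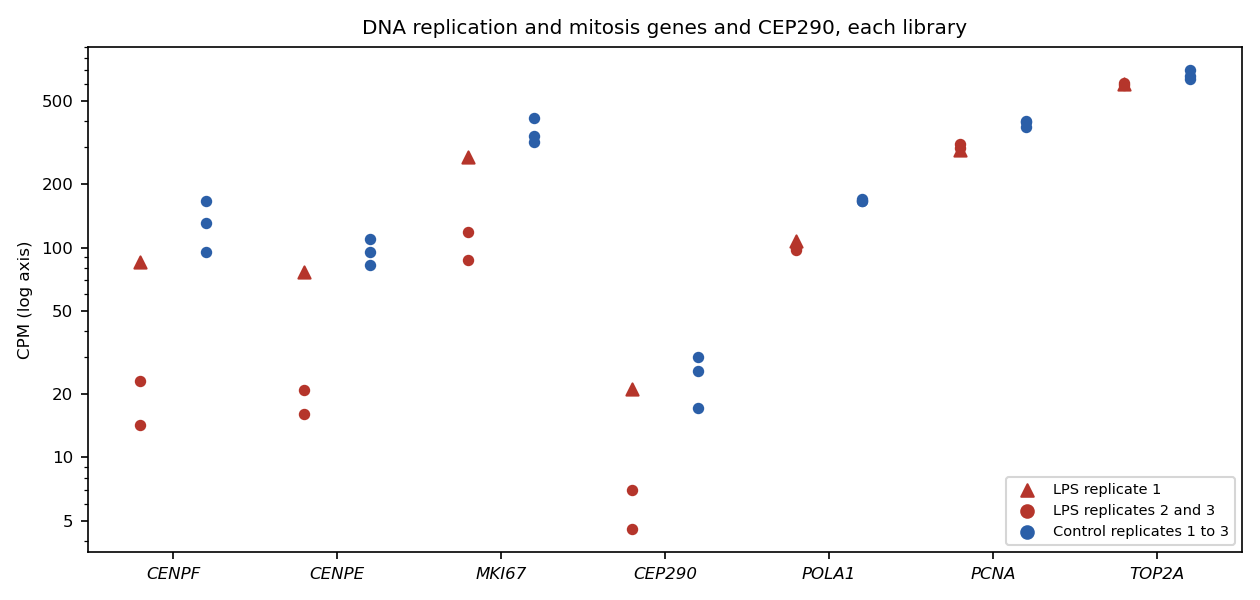
Each column of points shows 1 gene, LPS in red on the left and Control in blue on the right, with the level in CPM on a log axis, and triangles mark LPS replicate 1. In CENPF, CENPE, MKI67 and CEP290 the triangle lies near or within the range of the Control libraries while the other LPS libraries lie below it, and in POLA1, PCNA and TOP2A it lies with the other LPS libraries.

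Among cyclins and cell cycle inhibitors 2 of 28 rose and 2 fell, a share called of 14.3%, near the 12.0% of all genes tested. BTG2, which slows proliferation, was at 90.7, 93.5 and 92.3 CPM in the LPS libraries, against 19.5, 19 and 17.7 CPM in the Control libraries. It was raised 4.92-fold. Without LPS replicate 2 or Control replicate 1 the number that rose was 1. GADD45G (-0.97) and CDKN2C (-0.78) fell.

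Groups of genes that most cells keep at steady levels had few or no members that changed by more than 1.5-fold. No member of 65 tested cytosolic ribosomal protein genes was called in either direction by edgeR, DESeq2, limma-voom or limma on quantile-normalized values, although 15 had positive changes with an unadjusted p under 0.05 in edgeR, and the median log2 fold change was 0.07. The same tools called 0 of 34 tested subunits of respiratory complex I, of which 7 were positive and 2 negative at an unadjusted p under 0.05. Of 31 proteasome subunits 1 was called, PSMD3 (0.67), with a median of 0.15. Of 35 genes of the unfolded protein and amino acid response 1 was called, DDIT4 (0.68), and of 22 heat shock protein genes also 1, HSP90AB1 (0.63). At FDR below 0.05 without the fold-change minimum, 14 of 31 proteasome subunits were higher and 1 lower. All 13008 genes tested held 2346 higher and 2145 lower by the same rule. By this rule 13 of 35 genes of the unfolded protein and amino acid response were higher and 1 lower. The numbers were 3 and 0 of 22 heat shock proteins, 7 and 0 of 65 ribosomal proteins and 3 and 1 of 34 complex I subunits. The share higher was thus above that of all genes tested for the proteasome and unfolded protein lists. It was below that of all genes tested for heat shock proteins, ribosomal proteins and complex I. DDIT4 was not called without Control replicate 2 and HSP90AB1 not without LPS replicate 2. GAPDH was at 3992, 4235 and 4200.0 CPM in LPS, against 4672, 4143 and 4544 CPM in Control, and its libraries overlapped between groups.

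Of the 15 largest increases and 15 largest decreases among well-counted genes, several lie outside the lists. PI3, named after the peptidase inhibitor elafin of mammals, was at 57.4, 59.9 and 62.6 CPM in the LPS libraries, against 0.783, 1.17 and 0.738 CPM in the Control libraries. CMBL, a hydrolase, was at 75.1, 69.4 and 66.5 CPM in the LPS libraries, against 1.37, 1.56 and 2.27 CPM in the Control libraries. TGM4, a transglutaminase, was at 46.2, 51.1 and 44.5 CPM in the LPS libraries, against 1.30, 0.973 and 1.42 CPM in the Control libraries. These 3 genes were raised 66.8-fold, 39.9-fold and 37.9-fold, in that order, and K123, for which no role is given here, was raised 20.6-fold. Among the decreases, XDH, which forms urate from purines, was at 2.23, 3.22 and 2.60 CPM in the LPS libraries, against 20.1, 22.5 and 20.9 CPM in the Control libraries. DPEP2, a membrane dipeptidase, was at 21.7, 17.2 and 17.3 CPM in the LPS libraries, against 109, 126 and 113 CPM in the Control libraries. DNASE1L3, a secreted nuclease that digests DNA of dead cells, was at 1.77, 2.19 and 1.41 CPM in the LPS libraries, against 14.6, 12.3 and 14.3 CPM in the Control libraries. CDH23, a cadherin whose span contains VSIR, was at 4.30, 5.27 and 4.99 CPM in LPS, against 38.3, 35.9 and 35.5 CPM in Control, a similar relative decrease in a gene whose reads may be shared with VSIR. CD200R1A (-2.54), an inhibitory receptor, SHTN1 (-2.68), a protein of the cytoskeleton, and SLA (-2.39), an adaptor that damps antigen receptor signalling and lies within the span of the thyroglobulin gene, complete the 15 decreases.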

How the data were processed

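RNA-seq counts of 16161 genes in 12 HD11 libraries were read from the table the authors deposited, and only the 3 LPS and 3 Control libraries, grouped by the treatment in their labels, were used. The authors filtered single reads of TruSeq libraries, mapped them with HISAT2 to GRCg7b and counted them per gene with HTSeq. The deposited values are raw counts without normalization. Tool versions, annotation release and strand setting are not given in the sources used here. Depth was 13451069 to 17024392 counts per library, and counting intervals cover counting error only. The SeMC and SeMC+LPS libraries were not analysed here.

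The test was the quasi-likelihood test of edgeR 4.0.16 (R 4.3.3), after TMM scaling and filterByExpr with a minimum count of 10. Adjusted p-values follow Benjamini and Hochberg over 13008 genes, and a gene was called at FDR below 0.05 and a fold change over 1.5, the thresholds of the study, which used limma. Alternatives were DESeq2 1.42.0, limma 3.58.1 both as voom and on log2(count + 1) after quantile normalization, RLE and upper-quartile factors, no filter on low counts, no fold-change minimum, a fold change over 2, the replicate number as a block and each library left out in turn. On simulated counts of the LPS and Control libraries with 200 genes changed 2-fold, edgeR recovered 176 and called 6 others of 12856 genes tested. These counts were drawn with the dispersions that edgeR had estimated, with fewer changed genes and no library standing apart. The result therefore does not give the error rate in the real data.

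The members of the lists, the lists and the rule for named genes were chosen with earlier results of these data known. Genes were named as members of the lists or as the 15 largest increases and 15 largest decreases among called genes with no overlap between groups, a mean of at least 100 counts and a symbol other than a LOC identifier. Genes outside this rule, such as RASSF6 and those that set LPS replicate 1 apart, were named after their values were seen, as were the genes of the closing section that no list holds. A gene with at most 3 counts in every library of a group was treated as at the floor. Of the symbols, 16154 were found in RefSeq GRCg7b, whose 1-based coordinates are given. The planned search of promoters for motifs was not run, and sequences were not analysed here. Some genes of the lists are counted but not reported here by name. The remaining steps ran in Python 3.11.15, with matplotlib 3.10.9 for plots and scipy 1.17.1, numpy 2.4.6 and pandas 2.3.3 for the rest.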

Additional observations from a re-analysis of the deposited data

How the results depend on the processing

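Across 15 alternatives no gene called here and under the alternative differed in direction. Those that change only the fold-change minimum share the fit, and the others reuse the same libraries, so this agreement is not independent support. DESeq2, RLE and upper-quartile factors, no filter on low counts, limma-voom and quantile-normalized limma called 1491 to 1642 genes, 1222 genes were called by all 4 tools, and 1071 genes under every alternative other than the fold change over 2. Without a fold-change minimum 4491 genes were called, 2346 higher and 2145 lower in LPS, and above 2-fold 739 genes, 386 higher and 353 lower. Leaving out each library in turn gave 1438 to 1667 genes, 745 to 799 higher and 693 to 896 lower, and the most genes were called without LPS replicate 1. Same-numbered libraries did not deviate together (correlations of -0.041, -0.042 and 0.011), so the numbers were not taken to pair the samples, and a fit with the replicate block called 1523 genes, 1500 of them among the 1567. Leaving out single libraries gave log2 fold changes of -0.036 to 1.311 for DST and -0.475 to 0.388 for TCF4, the lowest of each without LPS replicate 1 and the highest without LPS replicate 2, and with limma-voom that of TCF4 was -0.019. Neither gene was called with all libraries, and the cause was not tested. Of 281 named genes that were called, 253 kept the call whichever library was left out, and the other 28 had absolute log2 fold changes of 0.59 to 1.35. The calls lost were those of CYLD, F2R, IL22RA1, LTA4H, PLAU, PPARA, SRF and ZFP36L1 without LPS replicate 1. Without LPS replicate 2 they were those of CD276, CEP290, CYLD, DMB2, HSP90AB1, IFIH1, IL15RA, IL22RA1, MBL2, MRC1, PLAU, SRF, TNFRSF10B, VTCN1 and ZFP36L1. Without LPS replicate 3 they were those of CENPE, CEP290, HAAO, IDH1, IFIH1, IL22RA1, MBL2, MRC1, PMAIP1, SPRY2, UBE2L6, VTCN1 and ZFP36L1. Without Control replicate 1 they were those of CYLD, F2R, IFIH1, IL22RA1, LTA4H, MBL2, MRC1, PLAU, SPRY2, VTCN1 and ZFP36L1, without Control replicate 2 those of AvBD6, CEP290, DDIT4, DMB2, IL15RA, IL22RA1, LTA4H, MBL2, PMAIP1, SPRY2, SRF, VTCN1 and ZFP36L1, and without Control replicate 3 those of CCL26, CD276, CEP290, DMB2, HAAO, IFIH1, MBL2, MRC1, PLAU, TIMP3 and UBE2L6. Among the 281 named genes, quantile-normalized limma lost 31 calls, those of CSF1, CD74, VEGFA, SCD, MCL1, MKI67, CENPE and CENPF among them, DESeq2 lost 9, MKI67, CENPE and CENPF among them, upper-quartile factors and the replicate block lost 3 each, and the fold change over 2 lost 110. Genes with few counts are the limit of depth, and 3153 genes were not tested. With 3 libraries per group from 1 cell line and 1 time, p-values measure the spread between these libraries only, and nothing in the labels says that they came from separate cultures.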

Other observations

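Genes outside the lists also changed, and those named here were chosen after their values were seen. LECT2, a secreted chemotactic protein known from liver in mammals, was at 6311, 6492 and 6254 CPM in the LPS libraries, against 750.2, 702 and 682 CPM in the Control libraries. It was 8.93-fold higher in LPS, with a log2 fold change of 3.16 and an adjusted p of 7.5e-15 in edgeR. MRGPRH, an orphan G protein-coupled receptor, was at 735, 765 and 756 CPM in the LPS libraries, against 93.9, 83.01 and 81.7 CPM in the Control libraries. It was higher in LPS, whereas 11 members of the list of G protein-coupled and purinergic signalling fell. A4GALT, which makes the glycolipid Gb3, was at 54.8, 53.6 and 59.3 CPM in the LPS libraries, against 3.91, 3.76 and 4.31 CPM in the Control libraries. G0S2, an inhibitor of the lipase that empties fat droplets, was at 115, 127 and 135 CPM in the LPS libraries, against 10.96, 8.17 and 11.5 CPM in the Control libraries, and its span overlaps that of LAMB3. None of these genes overlapped between groups.

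MLKL, which carries out necroptosis downstream of RIPK3, was at 24.96, 29.1 and 26.3 CPM in the LPS libraries, against 2.94, 2.59 and 4.03 CPM in the Control libraries, and both genes rose. S100A12, a calcium-binding protein of myeloid cells, was at 10.2, 9.001 and 10.4 CPM in the LPS libraries, against 0.522, 0.389 and 0.454 CPM in the Control libraries. ACTA2, a smooth muscle actin, was at 1475, 1383 and 1435 CPM in the LPS libraries, against 309.7, 338 and 309.7 CPM in the Control libraries, a log2 fold change of 2.17, and its span overlaps that of FAS. Decreases outside the lists included FKBP5, a co-chaperone of the glucocorticoid receptor and a well-known target of it, at 109, 131 and 133 CPM in the LPS libraries, against 384, 354 and 382 CPM in the Control libraries. RSFR, a leukocyte ribonuclease that lies near RNASE6 on chromosome 6, was at 368, 390.5 and 370.1 CPM in the LPS libraries, against 1034, 983 and 1065 CPM in the Control libraries. Both ribonucleases fell, with log2 fold changes of -1.45 and -1.68. B4GALNT3, a glycosyltransferase, had 0, 2 and 0 counts in LPS and 37, 51 and 53 counts in Control.

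The share called over all genes tested was 12.0%, with 6.13% higher and 5.92% lower in LPS. Genes known only by a LOC identifier made up 334 of the 1567 genes called, 192 higher and 142 lower in LPS, out of 2174 such genes tested. They were left out of the named genes because no function can be given for them here.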
